A study of Homo sapiens with 8 samples.

Results

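The sites described here were stretches of chromatin inside protein-coding genes that were accessible 3 h post UV in every UV-irradiated library of U2OS cells and in no library of unchallenged cells. Accessibility was measured by Omni-ATAC-seq, in which the transposase Tn5 cuts open DNA and tags it with sequencing adapters. U2OS is a human osteosarcoma cell line. The 8 libraries came from wild-type cells (WT) and from cells in which ASH1L, a histone H3 methyltransferase gene, had been deleted by CRISPR/Cas9 (ASH1L-/-), each unchallenged (no UV) or harvested 3 h post UV, the dose of UV-C being 20 J/m2, and each of the 4 groups had 2 libraries labelled as biological replicates. The ASH1L-/- cells were grown from individual colonies, so that a difference between the genotypes cannot be told apart from a difference between a colony and the parental cells. All libraries, the controls included, came from cells treated with DNase I before harvest to remove the DNA of dead cells.

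All intervals of the 8 peak lists were merged into 547779 union sites, and a library held a site if any of its intervals overlapped it. Members were selected on that presence or absence: a site had to be held by all 4 UV libraries and by none of the 4 libraries without UV, with its midpoint inside a protein-coding gene and more than 10 kb from the transcription start site (TSS) of every protein-coding gene. The rule found 1347 sites, which was 35.9% of the 3757 sites that were gained in this way anywhere in the genome. Gained sites made up 0.686% of all union sites and 0.589% of the 228606 union sites inside genes and far from TSSs, called gene-body sites below. Because these values chose the members, the difference between UV and no UV is described and not tested, and the tests concern the genotype and the descriptions concern features that the rule did not use.

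Accessible sites within introns are often enhancers, short elements where sequence-specific transcription factors displace nucleosomes and act on promoters at a distance. UV light activates the stress kinases JNK and p38, which act on AP-1, a dimer of Jun, Fos and ATF family proteins that binds a palindromic DNA motif and can open chromatin. It also activates NF-kB, a dimer of Rel family proteins held in the cytoplasm by inhibitors until stress releases it and it can enter the nucleus and bind a motif of its own. ASH1L methylates histone H3 in active chromatin. Bulky DNA lesions made by UV are removed by nucleotide excision repair.

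The 8 lists held between 158198 and 220783 regions, and the depth of a library, taken as its mean pileup over the whole genome, was between 1.39 and 5.87. The deepest and the shallowest library were the 2 replicates of unchallenged ASH1L-/- cells, and among the UV libraries, whose mean pileups were 2.45 to 2.81, WT replicate 2 stood apart by higher fold enrichments. The promoters (within 1 kb of the TSS) of the mesenchymal genes VIM, COL1A1, SPARC and RUNX2 held a region in 8 of 8 lists, that of COL1A2 in 7 and that of TWIST1 in 2. Those of the epithelial gene EPCAM and the glial gene GFAP also did in all 8, whereas CDH1, ESRP1, PTPRC, CD3E, RBFOX3 and ALB held none in any list, and SPI1 and SOX10 held a region in 1 list each. A peak list does not show whether ASH1L was disrupted, so the deletion was not checked here.

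The sequences that carry the main features of these sites are shown first. The following stretches of the plus strand of hg38 reach 100 bases to each side of the mean summit, the position of highest read pileup averaged over the UV libraries. They belong to members among the 10 with the highest accessibility after UV. Capitals mark AP-1 motifs (TGANTCA).
DUSP16, chr12:12510211-12510411: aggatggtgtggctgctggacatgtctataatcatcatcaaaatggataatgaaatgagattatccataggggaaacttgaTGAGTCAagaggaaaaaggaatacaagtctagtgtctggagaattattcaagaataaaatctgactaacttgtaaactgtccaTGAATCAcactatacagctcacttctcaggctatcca
CNTN4, chr3:2950230-2950430: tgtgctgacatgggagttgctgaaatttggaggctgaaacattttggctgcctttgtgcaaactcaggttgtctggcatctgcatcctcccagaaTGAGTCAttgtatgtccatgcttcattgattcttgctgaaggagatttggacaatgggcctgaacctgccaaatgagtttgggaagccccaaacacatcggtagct
CCBE1, chr18:59546232-59546432: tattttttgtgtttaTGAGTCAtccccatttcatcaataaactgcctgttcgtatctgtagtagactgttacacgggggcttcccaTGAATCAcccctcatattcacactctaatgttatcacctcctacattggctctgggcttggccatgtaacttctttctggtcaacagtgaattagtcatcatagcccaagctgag
MAMLD1, chrX:150482837-150483037: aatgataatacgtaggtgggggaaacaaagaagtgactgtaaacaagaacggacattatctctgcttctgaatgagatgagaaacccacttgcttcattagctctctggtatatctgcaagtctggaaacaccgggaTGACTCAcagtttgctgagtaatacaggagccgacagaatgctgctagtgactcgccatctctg
In DUSP16 the motifs TGAGTCA and TGAATCA were centred at -16 and 67 bp from the mean summit, and in CNTN4 the motif was centred at -2 bp. Other members among the 10 held no AP-1 motif in this window. They were the most accessible, in RGS20, and those in SLC35F3, GMDS, FCHSD2 and FHIT. The second most accessible of all members, in FHIT, is shown for contrast.
FHIT, chr3:60935666-60935866: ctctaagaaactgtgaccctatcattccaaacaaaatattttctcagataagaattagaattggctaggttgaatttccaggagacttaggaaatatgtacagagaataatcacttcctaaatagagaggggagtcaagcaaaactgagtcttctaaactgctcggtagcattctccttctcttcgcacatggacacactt

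A second and much smaller group of members held an NF-kB motif. Of its 4 most accessible, 3 were chosen after their values were seen and are shown with the NF-kB motif and any AP-1 motif in capitals.
ROBO1, chr3:79367105-79367305: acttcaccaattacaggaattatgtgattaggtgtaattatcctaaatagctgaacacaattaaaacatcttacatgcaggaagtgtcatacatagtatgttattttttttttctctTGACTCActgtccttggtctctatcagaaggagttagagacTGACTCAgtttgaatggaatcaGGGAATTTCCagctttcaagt
SDK1, chr7:3862025-3862225: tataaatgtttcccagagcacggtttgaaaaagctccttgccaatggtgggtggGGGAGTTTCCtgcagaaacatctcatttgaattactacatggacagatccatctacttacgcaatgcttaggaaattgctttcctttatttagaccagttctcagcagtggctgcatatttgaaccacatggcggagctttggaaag
MCC, chr5:113266395-113266595: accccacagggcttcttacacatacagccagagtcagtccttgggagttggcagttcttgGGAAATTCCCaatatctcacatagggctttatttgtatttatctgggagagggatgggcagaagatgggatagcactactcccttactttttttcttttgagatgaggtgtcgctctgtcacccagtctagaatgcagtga
In ROBO1, the gene of an axon guidance receptor, 2 AP-1 motifs centred at 20 and 61 bp from the mean summit preceded the NF-kB motif at 85 bp. SDK1 and MCC held the NF-kB motif at -41 and -35 bp and no AP-1 motif in the window.

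The members were sites of middling strength. The median member had a fold enrichment, the ratio of the pileup at the summit to the local background, of 3.68 and 4.94 in the WT libraries 3 h post UV and of 3.77 and 3.67 in the ASH1L-/- libraries 3 h post UV. Ranked within each list, this corresponded to the percentiles 50.9 and 49.5 in WT and 47.0 and 52.8 in ASH1L-/- cells, where 100 is the strongest region of a list. Between 5.42% and 9.28% of the members fell in the top quartile of a list, 18 members did so in all 4 lists, and 248 lay below the median in all 4. Percentiles are used below because fold enrichments were generally higher in WT replicate 2. In bulk nuclei, fewer cells with an open site and less opening in each cell cannot be told apart.

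Pileups were recovered from the deposited values and divided by the mean pileup of the library. The median member then stood at 5.93 and 8.98 times the genome mean in WT cells and at 6.54 and 6.396 times in ASH1L-/- cells. The lists reached down to a significance floor of 0.01. Where the local background equalled the genome mean, this floor let WT replicates 1 and 2 without UV list a site from 2.86 and 2.87 times that mean, and ASH1L-/- replicates 1 and 2 from 2.04 and 3.60 times. Scaled to the depth of those libraries with its local background, the median UV level of a member would have passed this floor in all 1347 cases in 3 of them and in 1344 cases (99.8%) in the shallow ASH1L-/- replicate 2. These counts were nearly fixed by the rule, since members had to be listed in all 4 UV libraries. The same floor in those libraries was 2.49 to 2.86 times the mean, and the lowest median level of a member was 3.22 times. Whether depth accounts for the absence without UV was not tested. A region within 1 kb of the member was present in 15.6% to 19.5% of cases per library without UV. In 83.0% of the members, the region had a q-value below 0.05 in all 4 UV libraries.

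**Figure D1:**
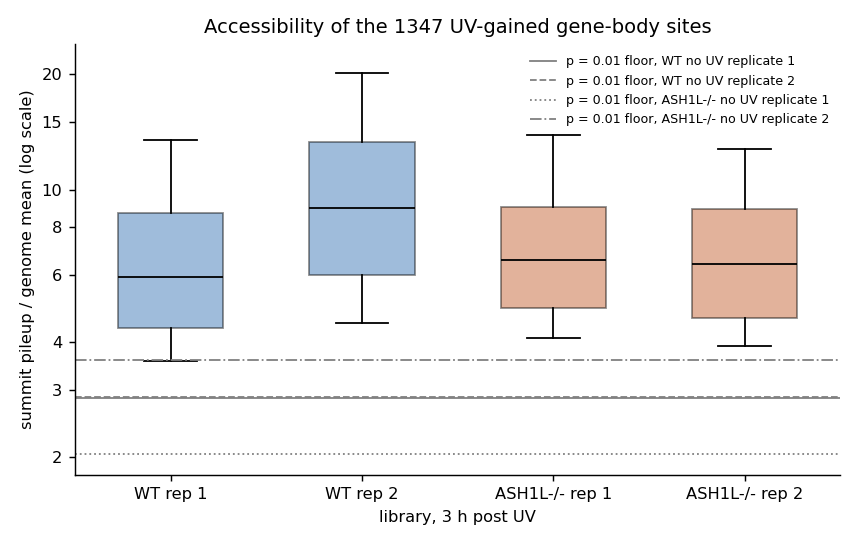
Summit pileup over the genome mean (log scale) of the 1347 members in the 4 UV libraries. Boxes give the median and quartiles and whiskers the 10th and 90th percentiles over sites. Grey lines mark the lowest value that each library without UV could list at the significance floor, on a background equal to the genome mean. The medians lie between 5.93 and 8.98, above all 4 lines. Members had to be listed in all 4 UV libraries, so this position was largely set by the rule.

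The 10 members of highest mean percentile lay in introns of 10 different genes. The first was in intron 1 of RGS20, a regulator of G protein signalling, with fold enrichments of 11.2 and 14.1 in WT and 12.4 and 14.4 in ASH1L-/- cells. A site in FHIT (chr3:60935640-60936143), which spans a common fragile site, had fold enrichments of 6.23 and 12.8 in WT and 15.7 and 14.7 in ASH1L-/- cells. All 10 were thus strong in each UV library, with percentiles of at least 73.5. The site in intron 3 of DUSP16 (chr12:12510001-12510631) had 13.5 and 16.0 in WT and 8.90 and 6.33 in ASH1L-/- cells. DUSP16 encodes a phosphatase that inactivates JNK and p38. In MAMLD1, a gene of sex development (chrX:150482726-150483288), the values were 12.5 and 15.6 in WT and 10.4 and 6.55 in ASH1L-/- cells. The others lay in SLC35F3, GMDS, which makes the precursor of fucosylated glycans, CNTN4, a neuronal adhesion molecule, CCBE1, which is needed for lymphatic vessel growth, POLN, a translesion DNA polymerase gene, and FCHSD2. Their lowest percentile in any UV library was between 76.9 and 82.1, in POLN and FCHSD2. By percentile, both WT libraries were above both ASH1L-/- libraries in DUSP16 and MAMLD1. Both ASH1L-/- libraries were above in RGS20, FHIT, SLC35F3, GMDS, CNTN4 and FCHSD2. The gap was 11.2 percentile points in FHIT, 10.6 in DUSP16 and 0.348 in FCHSD2.

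The members were short elements. Their width was between 160 and 1658 bp with a median of 490 bp. The median was 727 bp in sites of gene bodies that all 8 libraries held. Over all gene-body sites, most of which came from 1 library, it was 224 bp. Merged sites were wider the more libraries held them. Gene-body sites held by exactly 4 libraries had a median of 492 bp, near that of the members. The widest members lay in DSCAM (1658 bp) and CELF2 (1275 bp). Summits of the 4 UV libraries lay within 50 bp of each other in 26.6% of the members and in 50.1% of the sites held by all 8 libraries, with median ranges of 158 and 50 bp. Summit positions thus varied more between libraries in the members than in constitutive sites. The constitutive sites were also stronger, with median percentiles of 79.2 to 83.6 in the UV libraries against 47.0 to 52.8 in the members. The comparison was not matched for strength.

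By annotation, 1266 members (94.0%) lay in introns, 24 in coding exons and 57 in untranslated or non-coding exons, and the share in introns was 91.8% over all gene-body sites. The median distance from the nearest TSS was 61980 bp, and 34.7% were more than 100 kb away, up to 1674540 bp in LRP1B. Of the members within an intron of the longest transcript of their gene, 23.4% lay in the first intron, and 47.2% of all members lay before the middle of the gene. These shares were 21.9% and 43.7% in every 20th gene-body site. GENCODE lists further transcripts with starts inside genes, and 494 members (36.7%) were within 10 kb of one of these, as were 38.0% of all gene-body sites. The shares within 1 kb were 8.02% and 7.97%. In these respects the members differed little from other accessible sites within genes.

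At the 10 kb limit of the rule, the members just inside lay in SFSWAP and ETS2, 10006 and 10021 bp from the nearest TSS, with fold enrichments of 4.77 and 4.90 in WT and 7.56 and 6.74 in ASH1L-/- cells for SFSWAP and 2.87 and 3.34 in WT and 4.26 and 4.49 in ASH1L-/- cells for ETS2. The gained sites just outside lay in LRRC74A and FAM13A, 9963 and 9929 bp away, with 2.23 and 2.45 in WT and 2.59 and 4.46 in ASH1L-/- cells for LRRC74A and 6.22 and 8.57 in WT and 4.68 and 3.20 in ASH1L-/- cells for FAM13A. Values on both sides of the limit overlapped. Next to the presence rule stood 2002 gene-body sites held by all 4 UV libraries and 1 library without UV, and 2072 held by 3 UV libraries and none without UV.

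The specific motif with the widest difference in share between the members and other gene-body sites was the AP-1 motif. TGANTCA, searched on both strands (which are the same for this palindrome), occurred within 100 bp of the mean summit in 623 of 1347 members, a share of 46.3% (95% Wilson interval 43.6% to 48.9%). The share was 12.6% over all 228606 gene-body sites, 35.3% in the 19378 gene-body sites held by all 8 libraries and 4.79% in the 188 gene-body sites lost after UV, that is held by all 4 libraries without UV and by no UV library. UV-gained sites between genes resembled the members, with 49.7% of 1896 sites, and UV-gained sites inside genes within 10 kb of a TSS held the motif in 31.7% of 514 cases. Gene-body sites held by all 4 UV libraries and 1 library without UV held it in 45.2% of cases. With 2 libraries without UV it was 40.1%, and 33.9% in sites held by 3 UV libraries and none without UV. A share near that of the members was thus not particular to them. Intervals cover counting error only, and sites are not replicates of a condition.

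Sites held by few libraries held the motif less often (6.91% with 1 library), so sites held by exactly 4 libraries were compared with each other. Among these gene-body sites the share was 4.79% when none of the 4 was a UV library, 9.74% with 1 UV library, 18.1% with 2, 29.5% with 3 and 46.3% with all 4, the members. Their 95% Wilson intervals did not overlap, except those of the sites with none and with 1 UV library. The motif was also more frequent in the UV libraries outside the members, since 22.9% to 29.2% of their other gene-body sites held it and 16.5% to 20.4% of those of the libraries without UV. In gene-body sites that a single library held, the share was 5.49% to 6.73% in the libraries without UV and 7.36% to 13.8% in the UV libraries, with the highest value in WT replicate 2. Without that library, applying the rule to the other 7 gave a share of 41.4%, and without WT replicate 1 after UV it was 39.5%.

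**Figure D2:**
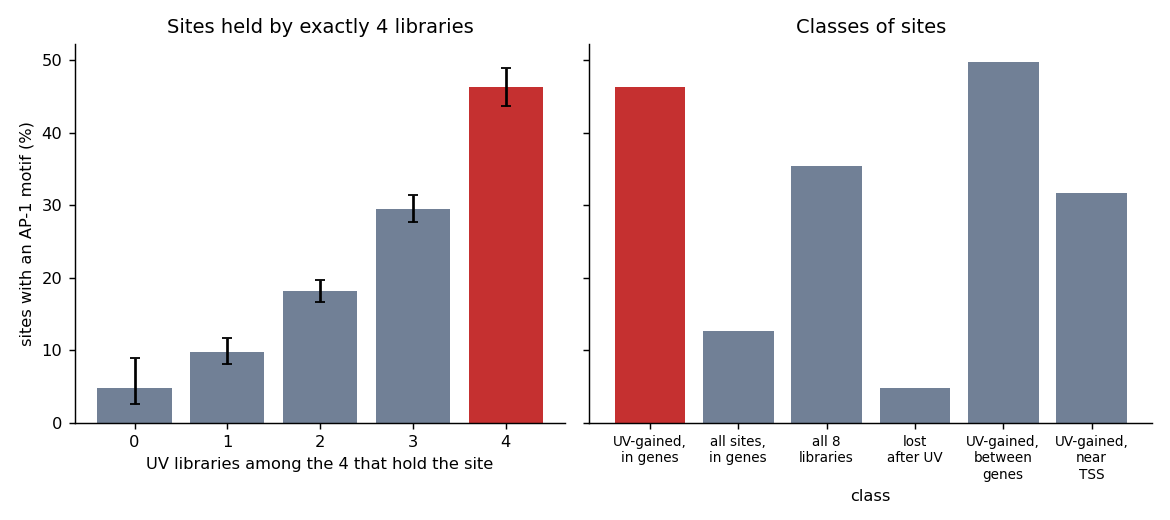
Share of sites with an AP-1 motif within 100 bp of the mean summit. Left, gene-body sites held by exactly 4 libraries, by how many of the 4 were UV libraries, with 95% Wilson intervals, rising from 4.79% to 46.3%. Right, the members and 5 other classes of sites, where all but the last 2 are gene-body sites far from TSSs.

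The motif lay close to the point of highest accessibility. In 20-bp bins, an AP-1 motif occurred in 5.94% of the members at 10 bp from the mean summit and in 0.817% at 490 bp. In sites held by all 8 libraries the share at 10 bp was 4.36%. Of the members with the motif, 30.02% had it within 25 bp of the mean summit, at a median distance of 43 bp. At least 2 motifs were present in 103 members (7.65%), against 1.08% of all gene-body sites and 5.14% of those held by all 8 libraries. The centre of the motif was C or G in 473 members and A or T in 202. Members with and without the motif differed little in strength, with median percentiles of 52.4 and 48.0 in WT replicate 1, 51.6 and 47.5 in WT replicate 2, 48.7 and 47.0 in ASH1L-/- replicate 1 and 55.5 and 52.8 in ASH1L-/- replicate 2.

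**Figure D3:**
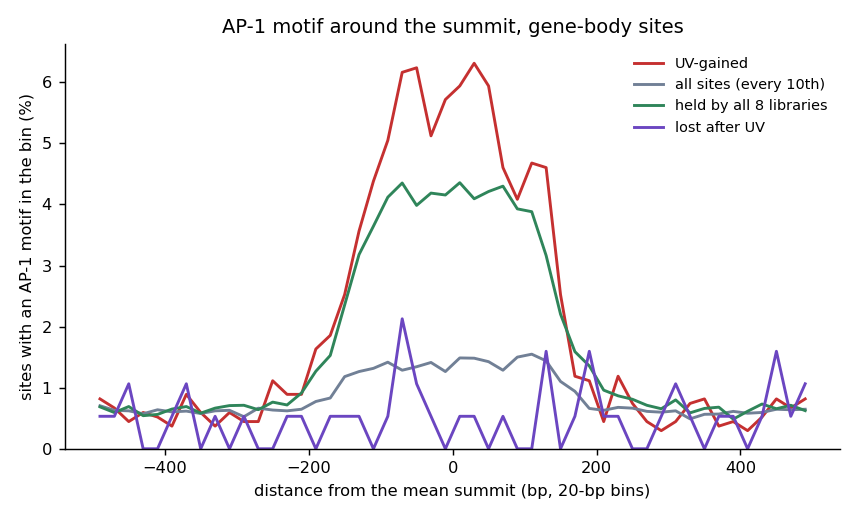
Share of gene-body sites with an AP-1 motif in each 20-bp bin, by distance from the mean summit in bp, for the members, every 10th of all gene-body sites, the sites held by all 8 libraries and the 188 sites lost after UV. The curve of the members is highest within about 100 bp of the summit, where it reaches 6.31%.

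A count of all sequences of 7 bases, made after the motif result was known, gave the same picture. Among those present in at least 20 members, TGACTCA (or TGAGTCA on the other strand) had the highest share relative to all gene-body sites, at 35.1% against 8.83%. The sequence ATGACTC was in 15.7% of the members and 4.36% of all gene-body sites. Another, with the letters TGACTAA, differed from the AP-1 motif near its end and was in 10.4% and 2.91%. The first 6 of the ranking all shared a stretch of their letters with the AP-1 motif.

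Of the 22 motifs searched, that of NF-kB had the highest share relative to all gene-body sites. It was present in 27 members (2.004%, 95% Wilson interval 1.38% to 2.90%) and in 0.291% of all gene-body sites, 0.475% of those held by all 8 libraries, none of the 188 lost sites, which allows a share of up to 1.596%, and 2.43% of UV-gained sites between genes. These 27 members lay in 27 genes, 26 of them in introns, and 11 also held an AP-1 motif. Among sites held by exactly 4 libraries, NF-kB motifs were in 0.271% with 1 UV library, 0.505% with 2 and 0.576% with 3. The members thus stood above the other sites held by 4 libraries. Without WT replicate 1 after UV, applying the rule to the other 7 libraries gave a share of 1.29%.

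Other stress-related motifs had lower shares relative to all gene-body sites. GCGTGGG of the early growth response factors (EGR) was in 2.67% of the members and 1.31% of all gene-body sites, and TGATGNAAT of ATF4, a factor of the integrated stress response, in 1.78% and 1.07%. TGACGTCA, the cyclic AMP response element (CRE), was in 5 members (0.371% and 0.126%), and the heat shock factor (HSF) motif in 11 (0.817% and 0.316%). TGACNNNGC of NRF2, which acts in the oxidative stress response and can overlap an AP-1 motif, was in 10.8% and 8.59%. The p53 motif was in 1.56% of the members and 1.32% of all gene-body sites. In gene-body sites held by all 8 libraries the shares were 2.23% for EGR, 1.59% for ATF4 and 0.310% for CRE. There they were 0.423% for HSF, 11.7% for NRF2, above that of the members, and 0.872% for p53.

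Several motifs were less frequent in the members than in sites held by all 8 libraries. TEAD, the partner of YAP, had GGAATG in 15.4% of the members, 13.4% of all gene-body sites, 21.6% of those held by all 8 libraries and 47 of the 188 lost sites. TGTGGTT of RUNX factors, the regulators of bone cells, was in 5.79%, 4.76%, 8.80% and 14.4%. The motif of CTCF, the factor at loop anchors, was in 1.63%, 1.67%, 5.10% and 1.06%. The median GC content of the members was 45.3%, below the 47.3% of all gene-body sites. It was 48.8% in those held by all 8 libraries and 48.3% in the lost sites. UV-gained sites between genes resembled the members in these respects. Their median GC content was 44.8%, and their shares were 14.6% for TEAD, 4.75% for RUNX and 1.64% for CTCF. Neighbouring TT or AA bases, where UV makes thymine dimers, numbered 30.6 per window in the members on average and 29.9 over all gene-body sites, whereas pairs of neighbouring pyrimidines of any kind, counted on both strands, numbered 111.2 and 112.6.

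**Figure D4:**
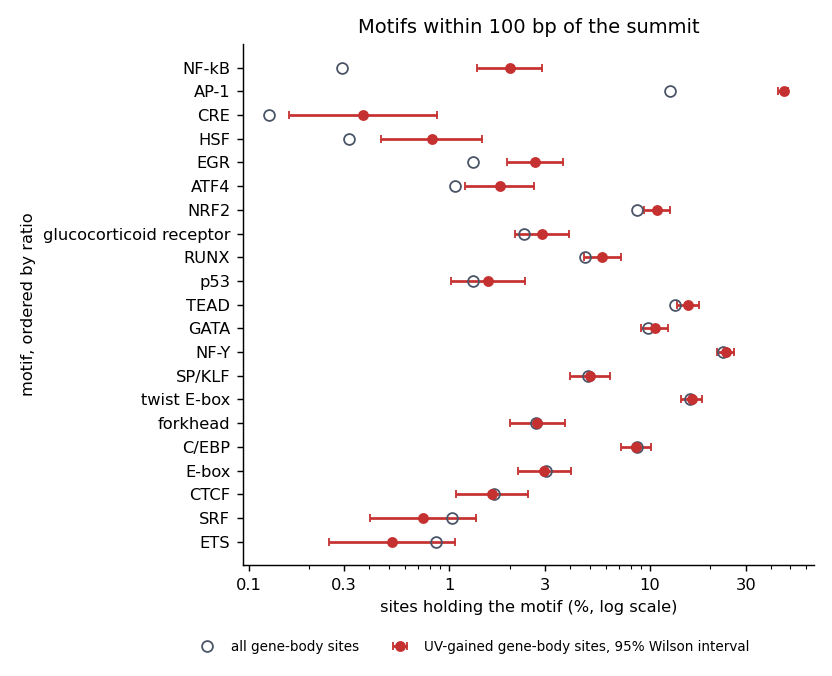
Share of sites holding each of 21 motifs within 100 bp of the mean summit (log scale), in the 1347 members with 95% Wilson intervals and in all 228606 gene-body sites, ordered by the ratio of both. The NF1 motif, absent from the members, is left out, and NF-kB and AP-1 are at the top.

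The genotype was not used by the rule, and could be compared after UV. The median percentile of the members was 50.2 ± 1.05 in WT and 49.9 ± 4.07 in ASH1L-/- cells (mean ± SD, n = 2 each), a difference of 0.287 (exact permutation test, two-sided, p = 1, with 0.333 the smallest p that 2 libraries against 2 allow). The difference was smaller than the spread between replicates, and its sign depended on the measure. In 293 members (21.8%) both WT libraries were above both ASH1L-/- libraries, in 322 (23.9%) both ASH1L-/- libraries were above, and in 732 they overlapped. The background was 14.2% and 26.2% over all 88184 union sites held by all 4 UV libraries, and 16.2% and 25.1% over the 29673 of these inside genes and far from TSSs. On the scale of pileup over the genome mean, 402 members were higher in WT and 164 in ASH1L-/- cells (29.8% and 12.2%), beside a background of 26.3% and 9.32%, so which genotype prevailed turned with the scale both in the members and in the background.

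The members with the widest gap between the genotypes were of middling or low mean strength. In MICAL2, the gene of an actin-oxidising enzyme (chr11:12187430-12187949), the fold enrichments were 5.10 and 5.34 in WT and 2.14 and 1.601 in ASH1L-/- cells, and in RFX7 they were 4.82 and 8.71 and 2.61 and 2.10. By fold enrichment both sites were thus weak but present in ASH1L-/- cells. The pileup of the MICAL2 site was 46.6 and 65.1 times the genome mean in WT and 27.0 and 15.3 times in ASH1L-/- cells. With such fold enrichments, its local background was also well above the genome mean, against 1.10 times for the median member. In ASH1L-/- replicate 2 its fold enrichment ranked at percentile 0.0138. In the other direction, C10orf71 had 2.45 and 2.51 in WT and 5.19 and 4.46 in ASH1L-/- cells, GRID1, a glutamate receptor gene, 2.41 and 2.43 and 4.86 and 5.24, and GRIK4, a kainate receptor gene, 2.83 and 2.99 and 6.96 and 6.03. They were chosen for their gap, which is a description.

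**Figure D5:**
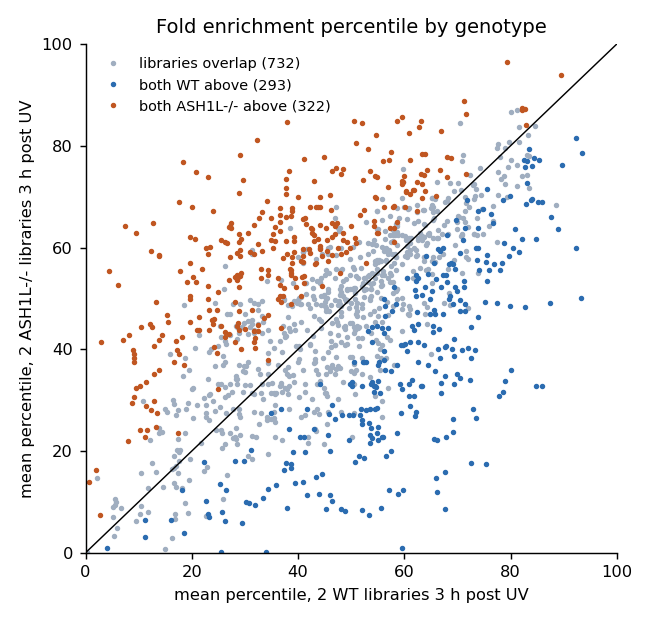
Mean percentile of fold enrichment 3 h post UV of each of the 1347 members in the 2 WT libraries (x axis) and the 2 ASH1L-/- libraries (y axis). Blue points (293) had both WT libraries above, orange points (322) both ASH1L-/- libraries, and grey points (732) overlapped.

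Members with an NF-kB motif were mostly higher in WT cells, a pattern with no test across sites. In 16 of the 27, both WT libraries were above both ASH1L-/- libraries, and in none were both ASH1L-/- libraries above, beside 21.8% and 23.9% of all members. On the pileup scale these counts were 19 and 0, beside 29.8% and 12.2% of all members. The median percentile of the 27 was 68.0 and 61.5 in WT and 41.3 and 52.8 in ASH1L-/- cells, a difference between the means of 17.8 (exact permutation test, two-sided, p = 0.333, the smallest that the design allows). A site in MYEOV had fold enrichments of 10.2 and 13.5 in WT and 4.77 and 3.07 in ASH1L-/- cells. One in SEM1 had 6.80 and 7.89 in WT and 2.90 and 3.93 in ASH1L-/- cells, and one in ZBTB20, the gene of a transcriptional repressor, 5.10 and 5.44 in WT and 2.61 and 2.36 in ASH1L-/- cells. These 3 did not overlap between genotypes, whereas ROBO1, with 8.50 and 13.0 in WT and 7.25 and 7.34 in ASH1L-/- cells, was separated by 3.29 percentile points and NRG1, with 8.78 and 8.71 in WT and 9.86 and 4.72 in ASH1L-/- cells, overlapped.

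This split was noticed in the members after the motifs had been counted, and was then looked up in other sites. In the 46 UV-gained sites between genes with an NF-kB motif, WT was above in 23 and ASH1L-/- in 4, beside 21.0% and 23.9% of all 1896 UV-gained sites between genes, and the median percentiles were 65.8 and 55.8 in WT and 33.5 and 48.0 in ASH1L-/- cells. In the 92 gene-body sites with the motif that all 8 libraries held, WT was above in 36 and ASH1L-/- in 7 after UV, and in 18 and 10 without UV. All sites held by the 8 libraries were above in WT in 14.0% and in ASH1L-/- in 25.3% of cases after UV, and in 16.9% and 15.9% without UV. Of the 623 members with an AP-1 motif, 147 were above in WT and 134 in ASH1L-/- cells by percentile, and 212 and 64 by pileup (34.03% and 10.3%), beside 29.8% and 12.2% of all members by pileup. Those with GGGCGG of the SP and KLF factors went the other way, with 4 and 21 of 68 by percentile. By pileup the counts for that motif were 9 and 10. Members with a TEAD motif were above in WT in 36 and in ASH1L-/- cells in 67 of 208 cases by percentile, and in 49 and 38 by pileup. Genotypes were compared for each of the 21 motifs that members held, and no p is given for these counts. For median percentiles, the exact permutation test gave the p = 0.333 of NF-kB for other motifs too. These were TEAD, SP/KLF, forkhead, GATA and p53, with ASH1L-/- cells higher, and HSF, with WT higher.

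The members were spread over many genes. Of the 13963 protein-coding genes with sequence more than 10 kb from every TSS, 1190 (8.52%) held at least 1 member, 1018 of them exactly 1, 138 held 2 and 34 held 3 or more. The density was 1.22 members per Mb of such sequence. By gene length, it fell from 1.46 per Mb in genes under 50 kb to 0.967 per Mb in genes of 500 kb or more, while the share of accessible gene-body sites that were members was 0.555% and 0.621% in these classes. Only 57 pairs of neighbouring members were within 20 kb of each other. The median distance to the nearest site held by all 8 libraries was 13025 bp, against 17102 bp for all gene-body sites and 9939 bp for the lost sites.

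NRG1, the gene of the growth factor neuregulin 1, held the most members (5, of which 3 had an AP-1 motif). MFHAS1, SLC25A21, PTPRN2, RUNX1, ANKS1B, TENM2 and CTNNA3 held 4 each. RUNX1 encodes a transcription factor of blood and bone cells, TENM2 a neuronal adhesion molecule and CTNNA3 a catenin of cell junctions. Among genes with 3 or more members, the density was highest in ITGAE, an integrin gene, with 3 members in 57.3 kb, where they made up 3 of 14 accessible sites far from TSSs. It was followed by MFHAS1 with 4 in 100.3 kb and FLI1, the gene of an ETS family factor, with 3 in 116.7 kb. GNG12, GRHL3, ENSG00000188897, CCDC73, ST6GALNAC5, KDM6A and MICAL2 also held 3 each. In KDM6A, the gene of an H3K27 demethylase, all 3 members held an AP-1 motif and made up 3 of 16 sites. Their fold enrichments were 5.67 and 7.62 in WT and 4.35 and 5.51 in ASH1L-/- cells for the first, 3.40 and 5.44 in WT and 3.48 and 4.46 in ASH1L-/- cells for the second and 4.31 and 4.58 in WT and 3.94 and 4.12 in ASH1L-/- cells for the third. ASH1L itself had 32 accessible sites of this position and no member, and 0 of 32 allows a share of up to 9.375%.

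Genes of 9 pathways were looked up, beside 0.589% of accessible gene-body sites that were members over all genes. Of 22 genes of TGF-beta and BMP signalling, 6 held 8 members (1.03% of their sites), 5 of them with an AP-1 motif. TGFB2, the gene of a ligand, held 2, and the stronger, in an intron (chr1:218398701-218399207), had fold enrichments of 9.23 and 11.6 in WT and 8.52 and 6.97 in ASH1L-/- cells. LTBP1, which stores the ligand in the matrix, held 2, the receptor genes TGFBR1 and TGFBR3 1 each, and SMAD2, a signal transducer, and SMAD6, an inhibitor, 1 each. Of 38 genes of the actin cytoskeleton and focal adhesions, 10 held 13 members (0.730% of their sites), with 2 each in LPP, NEDD9 and SORBS2. A site in DOCK1, the gene of an activator of Rac, had 7.66 and 13.1 in WT and 8.12 and 6.29 in ASH1L-/- cells. Of 33 genes of growth factor receptors and MAP kinase signalling, 6 held 1 member each (0.527%), namely the receptor genes AXL, EGFR and FGFR1 and the kinase genes MAP3K5, MAP4K4 and MAPK10. In EGFR (chr7:55192415-55193114) the values were 4.31 and 4.90 in WT and 6.05 and 3.45 in ASH1L-/- cells. This site was 172572 bp from the nearest TSS of the rule but 46 bp from the start of a further transcript.

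Of 27 genes of the extracellular matrix and osteoblasts, 5 held 8 members (0.876%). Of these, 4 were in RUNX1 and 1 each in RUNX2, the master regulator of bone formation, RUNX3, COL11A1 and TWIST1. Genes were taken as GENCODE records, which reach over 1216867 bp for RUNX1 and 96646 bp for TWIST1. The TWIST1 member lay 93154 bp from the nearest TSS. Of the 19 genes of the Hippo pathway, NF2, STK3 and TEAD1 held 1 each (0.488%). Common fragile site genes, which are very long, held 28 members in 14 of 18 genes, with 4 in CTNNA3 and 3 each in LRP1B, PTPRD and RBFOX1. Their density was 0.912 per Mb, below that of all genes, and their share of sites 0.820%. Of 36 genes of nucleotide excision repair and the damage checkpoint, 3 held 1 member each (0.761%). UVSSA, which acts in transcription-coupled repair, had fold enrichments of 3.40 and 5.17 in WT and 3.94 and 2.19 in ASH1L-/- cells. POLK, a translesion polymerase, had 2.62 and 3.18 in WT and 3.78 and 3.13 in ASH1L-/- cells. ERCC1, a nuclease subunit, had 2.09 and 3.03 in WT and 2.57 and 2.13 in ASH1L-/- cells. The GENCODE record of ERCC1 reaches over 71495 bp. Its member lay 18864 bp from the nearest TSS, which was that of another gene. No member lay in the 9 AP-1 factor genes or the 13 p53 target genes that had sequence far from TSSs, which held 71 and 102 accessible sites and allow shares of up to 4.23% and 2.94%. With so few sites per list, most counts were of 1 or 2 sites a gene, and no list was tested.

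Chromosome X stood apart from the autosomes. It held 45 members, which was 2.33% of its 1929 accessible gene-body sites, against 0.407% to 1.04% on the autosomes. Its density of 0.999 members per Mb was within the autosomal range of 0.700 to 2.198, however, while it had 42.8 accessible gene-body sites per Mb against 83.9 to 373, and 16.6% of these were held by all 8 libraries against 6.88% to 11.8%. The higher share thus went with fewer sites in the denominator. It was not particular to gene bodies. Among sites between genes, the share gained after UV was 1.91% on chromosome X and 0.505% to 1.03% on the autosomes. Chromosome X also held 1.25% to 1.78% of all sites of the libraries without UV and 1.799% to 2.44% of those of the UV libraries. The AP-1 motif was in 53.3% of its members.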

How the data were processed

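The authors trimmed adapters, aligned paired reads to hg38 without chromosome Y, removed duplicates, reads of low mapping quality and blacklisted regions, and then ran macs2 on every library by itself. Per the submitters' processing notes the tools were cutadapt 1.9.1, Bowtie2 2.4.5, SAMtools 1.7, bedtools 2.29.2, Picard and MACS2 2.2.7.1. The deposited fold enrichment is a ratio of summit pileup to local background, and the deposited −log10 p-value and −log10 q-value are those of the peak caller. No value was normalised between libraries by the authors, and no read counts were used here.

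Records that share an interval were joined and their strongest summit kept. Percentiles of fold enrichment were taken within each list. Pileups were recovered by solving the definitions of fold enrichment and Poisson p-value, within 0.1% of −log10 p for 98.6% or more of regions. The lowest background of a library was taken as its genome mean. TSSs were the 5′ ends of protein-coding gene records of GENCODE release 44, and the sequences came from hg38. The reference matched the build of the files. Motifs were counted in 201 bases around the mean summit over the libraries that hold a site. Lost sites and the other classes were placed by the same rule. Functions were tested on simulated data. Python 3.11.15 was used with numpy 2.4.6, pandas 2.3.3, scipy 1.17.1, pysam 0.24.0 and matplotlib 3.10.9.

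The members, motifs and gene lists were chosen with earlier results of these data known. Named sites were the 10 of highest mean percentile, the 3 with the largest genotype gap in each direction, the 2 widest, and the 2 on each side of the 10 kb limit. Named genes were the 10 with most members, the 10 densest with 3 or more members, those of the lists, and ASH1L. NF-kB sites were named after their values were seen. A named site and a marker gene are not reported here. Genotypes were compared by an exact permutation test over libraries, two-sided. p-values measure the spread between libraries labelled as biological replicates. Alternatives were other intervals, TSSs, limits, windows and scales, each library left out, and pairing by replicate number.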

Additional observations from a re-analysis of the deposited data

How the results depend on the processing

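The number of members was 853 with the TSS of every transcript, and 1132 to 1761 under the other 6 settings of intervals, limits and placement. Leaving out 1 library and applying the rule to the other 7 gave 1555 to 2241, more than the reported 1347 because fewer libraries had to meet it. It was 2241 without WT replicate 1 after UV and 2076 without WT replicate 2 without UV. The share with an AP-1 motif was 49.1% with the TSS of every transcript (13.4% of all gene-body sites), 26.3% within 50 bp of the summit (6.32%) and 64.7% over the whole site (17.4%), where members are wider than most sites. It was 48.7% in the 885 members with no region of a library without UV within 1 kb, an alternative chosen after seeing the data, and 39.5% to 46.7% with 1 library left out. The median GC content was 43.95% over the whole site (47.0% of all gene-body sites) and 44.8% to 45.8% with 1 library left out. The share in introns was 93.2% to 94.2%, that of members with an NF-kB motif 1.29% to 2.37% and that on chromosome X 2.38% to 3.41% in the same way, the lowest on X without replicate 1 of unchallenged ASH1L-/- cells.

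The genotype difference in the median percentile of 0.287 turned to -1.98 with percentiles of −log10 p and to -0.0211 with q-values below 0.05, and was -2.59 to 3.16 with 1 UV library left out. With a replicate block, that is pairing libraries of the same number, it was 0.287 with p = 1 (exact permutation test), from 3.91 and -3.33 in the 2 pairs. Nothing in the labels ties the numbers to a shared batch, and replicate differences correlated at 0.0746 over members. By recovered pileup, 164 members had both ASH1L-/- libraries above, against 322 by percentile. Under the pairing, 396 members were higher in WT in both pairs and 416 in ASH1L-/- cells. Of the 27 members with an NF-kB motif, 17 to 19 were higher in WT by the other scales and the pairing. With 1 UV library left out, 17 to 23 were higher in WT and 1 to 4 in ASH1L-/- cells. Leaving 1 out sets 2 libraries against 1, which separate more readily, and the share over all members was not computed for it. No explanation of these shifts was tested. Fold enrichments rest on pileups of 15 to 24 reads at the median member, which limits the precision of single sites.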
